A study of Mus musculus with 6 samples.

Results

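The genes described here encode the collagens, laminins and glycoproteins that build the 2 kinds of extracellular matrix found around islet cells. They were taken from a list of 35 genes named by symbol, of which 34 had a probe set with that symbol alone, out of 18193 genes measured. Fbn1 had no such probe set and was not analysed here. The list holds 15 genes of the interstitial matrix, 14 of them measured, and 20 genes of the basement membrane, all measured. Each gene was read from its brightest probe set, a group of short probes that gives a log2 signal, so 1 unit is a doubling. Islets of Langerhans came from 12-week-old male C57Bl6 mice. The Flox group of 3 arrays came from flox mice, and the Tead1KO group of 3 arrays came from mice that lacked Tead1 in beta cells. The labels name no Cre driver, tie no array to a given animal and list no further allele or agent. The spread behind each p-value is thus that of these arrays alone and could be technical. Tead1 is a DNA-binding factor that acts with Yap1 at the end of the Hippo pathway, and connective tissue genes are among the known outputs of that pathway.

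Fibrillar collagens are secreted as triple-helical procollagens, trimmed by proteases, assembled into fibrils and cross-linked by lysyl oxidases. In islets they lie mainly in the capsule and around larger vessels, where fibroblasts and related cells make them. Basement membranes are thin sheets of laminin and collagen IV networks, tied together by nidogens and heparan sulfate proteoglycans. Mouse beta cells are known to make little basement membrane of their own and to rest on that of the islet capillaries, so these values are of whole islets with their vessels and stroma. In such bulk samples, fewer cells of a type and less RNA per cell cannot be told apart.

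Hormone transcripts of islets were strong in every array. Ins2, the insulin gene, read 15.67 to 15.71 and Gcg, the glucagon gene, read 14.69 to 14.81 over the 6 arrays. Of 7 beta cell markers 0 passed the test (limma), where 0.517% of all genes did. In 4 of them every Tead1KO array lay below every Flox array, as in 7.27% of all genes. These were the transcription factors Nkx6-1 (log2 difference -0.95, limma adjusted p = 0.0637) and Pdx1 (-0.66, 0.541), the hormone Ucn3 (-0.95, 0.0560) and the glucose transporter Slc2a2 (-0.82, 0.194). Ucn3, Nkx6-1 and Slc2a2 passed under some alternatives, among them quantile normalization. The part of this shift in the matrix values was not tested. Acinar transcripts were also strong and uneven, and Cpa1, a digestive enzyme, ranged from 11.92 to 14.33. Tead1KO replicate 3 stood apart from the other arrays, with the narrowest spread of all probe sets (interquartile range 2.65, against 2.99 to 3.32) and the lowest mean correlation with the rest (0.969, against 0.984 to 0.986). The spiked hybridization controls read 13.23 on it and 10.60 to 12.09 on the others. Several of the differences below are given with and without this array, and those given only with it may depend on it. Without it the beta cell differences were -0.87 for Nkx6-1, -0.43 for Pdx1, -0.86 for Ucn3 and -0.64 for Slc2a2. The targeted gene did not check the labels: the brighter Tead1 probe set read 7.22, 6.99 and 7.40 in Flox and 6.72, 7.49 and 5.95 in Tead1KO (exact permutation p = 0.4, two-sided, where 0.1 is the smallest possible), and its position against the removed exons is unknown here.

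No matrix gene of either kind passed the test between Tead1KO and Flox islets. Of the 34 measured genes, 0 had a limma adjusted p under 0.05, where 0.517% of all genes did, and the smallest adjusted p among them was 0.325. At an unadjusted p under 0.05 there were 4, where 7.41% of all genes lay: Col1a2, Col5a1 and Col14a1 with higher and Col18a1 with lower signal in Tead1KO. These 4 were also the only members whose difference exceeded 0.5 on the log2 scale in either direction. In 2 members, Col1a2 and Col14a1, all Tead1KO arrays lay above all Flox arrays, as in 5.80% of all genes. In 1 member, Col18a1, all Tead1KO arrays lay below all Flox arrays, as in 7.27% of all genes. The counts are of so few genes that no departure from the shares over all genes is read from them. The standard error of a member's difference was 0.13 to 0.33, and its unadjusted 95% interval typically reached 0.45 to either side (the median half-width). Changes smaller than that could not be told from 0 with 3 arrays a group, and larger ones could still miss the adjusted threshold. A p that misses the threshold does not show equal levels.

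**Figure D1:**
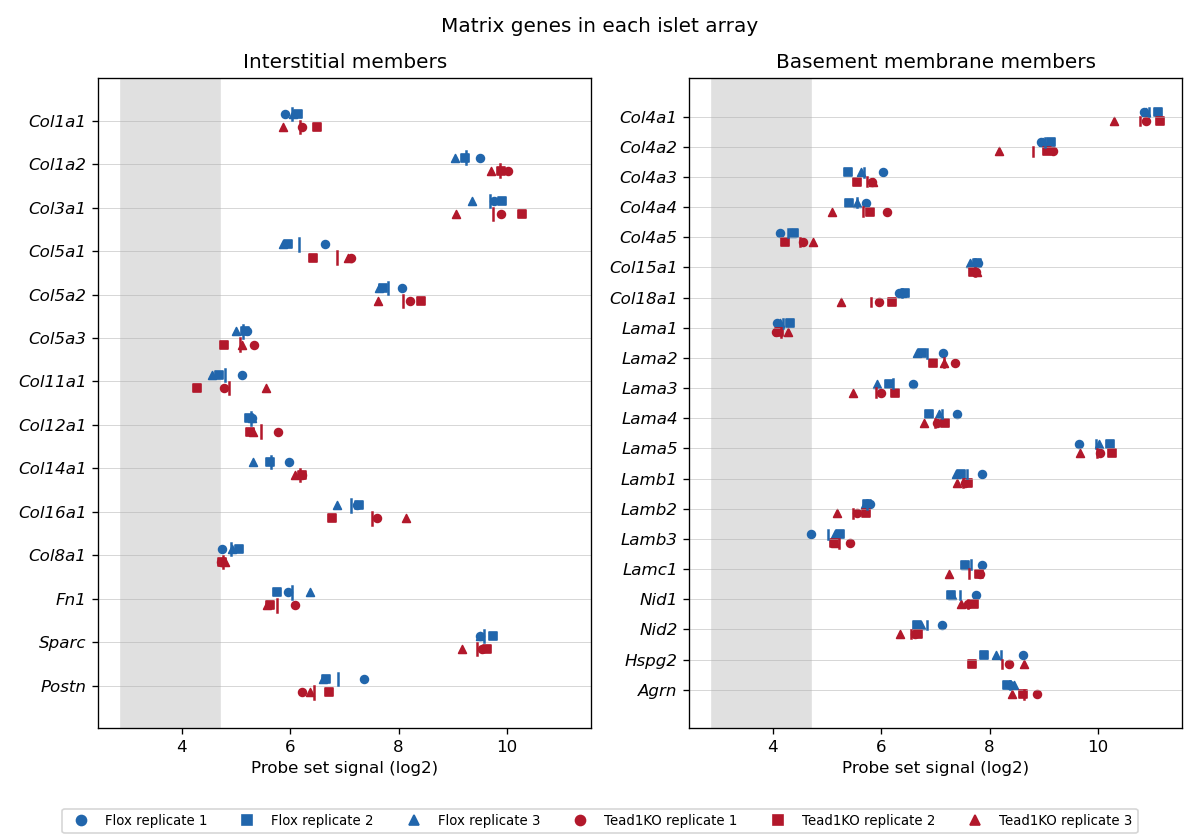
Probe set signal (log2, x axis) of the 34 measured matrix genes, interstitial on the left and basement membrane on the right; each point is 1 array (Flox in blue, Tead1KO in red, shapes for replicates), with ticks at the group means and grey shading over the signals of unspiked bacterial controls, 2.87 to 4.70. The groups are separate for Col1a2, Col14a1 and Col18a1 and overlap for the other genes, and Lama1 and Col4a5 have group means inside the band.

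The fibrillar collagens tended to read higher in Tead1KO islets, with none past the test. Of the 7 fibril-forming chains, 6 had a difference above 0, and their median was 0.15, against -0.01 over all genes. The upper end of this range was set by 2 chains, Col1a2 and Col5a1. Col1a2, which encodes the second chain of type I collagen, read 9.50, 9.22 and 9.03 in Flox and 10.01, 9.89 and 9.70 in Tead1KO. Each Tead1KO array thus lay above each Flox array, and the nearest pair was Tead1KO replicate 3 and Flox replicate 1. The group levels were 9.25 ± 0.24 and 9.87 ± 0.16 (SD, n = 3 each), a log2 difference of 0.62 or a ratio of 1.53 (SE 0.18, 95% interval 0.21 to 1.03, limma adjusted p = 0.325). A dimmer Col1a2 probe set differed by 0.20 with overlapping arrays, and a further one lay in the background range.

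Col1a1, the partner chain in the type I collagen molecule, did not follow Col1a2 in size. It read 5.91, 6.14 and 6.06 in Flox and 6.21, 6.49 and 5.86 in Tead1KO, with a log2 difference of 0.15 (SE 0.19, limma adjusted p = 0.846). Its Tead1KO replicates 1 and 2 were above every Flox array and its replicate 3 was below them all. Col3a1, the sole chain of type III collagen, also had its lowest value in Tead1KO replicate 3, with 9.77, 9.92 and 9.35 in Flox and 9.90, 10.27 and 9.06 in Tead1KO (log2 difference 0.06, limma adjusted p = 0.962). In Col3a1 the arrays of both groups were interleaved.

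Type V collagen nucleates fibrils and limits their width. Col5a1, its first chain, had the largest difference of all members in this comparison. It read 6.64, 5.96 and 5.86 in Flox and 7.12, 6.42 and 7.08 in Tead1KO, so that Tead1KO replicate 2 lay below Flox replicate 1. Its log2 difference was 0.72, a ratio of 1.64 (SE 0.27, 95% interval 0.08 to 1.35, limma adjusted p = 0.590). A covariate for the hybridization controls gave 0.38, below Col1a2 at 0.59. Its other probe sets differed by 0.38 and 0.15. Col5a2, the second chain, differed by 0.27 and again had Tead1KO replicates 1 and 2 above every Flox array and replicate 3 below them. Col5a3, a minor chain, differed by -0.05. Col11a1, a chain of type XI collagen, differed by 0.08 and was above the background range in only 3 arrays. With the hybridization controls as a covariate it was at -0.39 (95% interval -0.73 to -0.06, limma adjusted p = 0.439). The median of the 7 chains in that fit was 0.37. Col3a1 and Col5a2 are direct neighbours in the RefSeq gene order, and their differences were 0.06 and 0.27.

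The fibrillar values moved with the choice of arrays. Without Tead1KO replicate 3 the median of the 7 chains was 0.40, with 5 of 7 above 0, and without Flox replicate 1 it was 0.24. In that fit without Tead1KO replicate 3 the differences were 0.70 for Col1a2, 0.61 for Col5a1, 0.50 for Col5a2, 0.40 for Col3a1, 0.32 for Col1a1, -0.07 for Col5a3 and -0.26 for Col11a1. Of the 34 members, 0 passed there, where 0.973% of all genes did (limma adjusted p = 0.165 for Col1a2, the smallest). At an unadjusted p under 0.05 there were 4, Col1a2, Col5a2, Col14a1 and Agrn, where 7.96% of all genes lay. With all arrays the count was also 4, and it was 1 without Flox replicate 2, Flox replicate 3 or Tead1KO replicate 1. It was 3 without Flox replicate 1 and 5 without Tead1KO replicate 2.

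**Figure D2:**
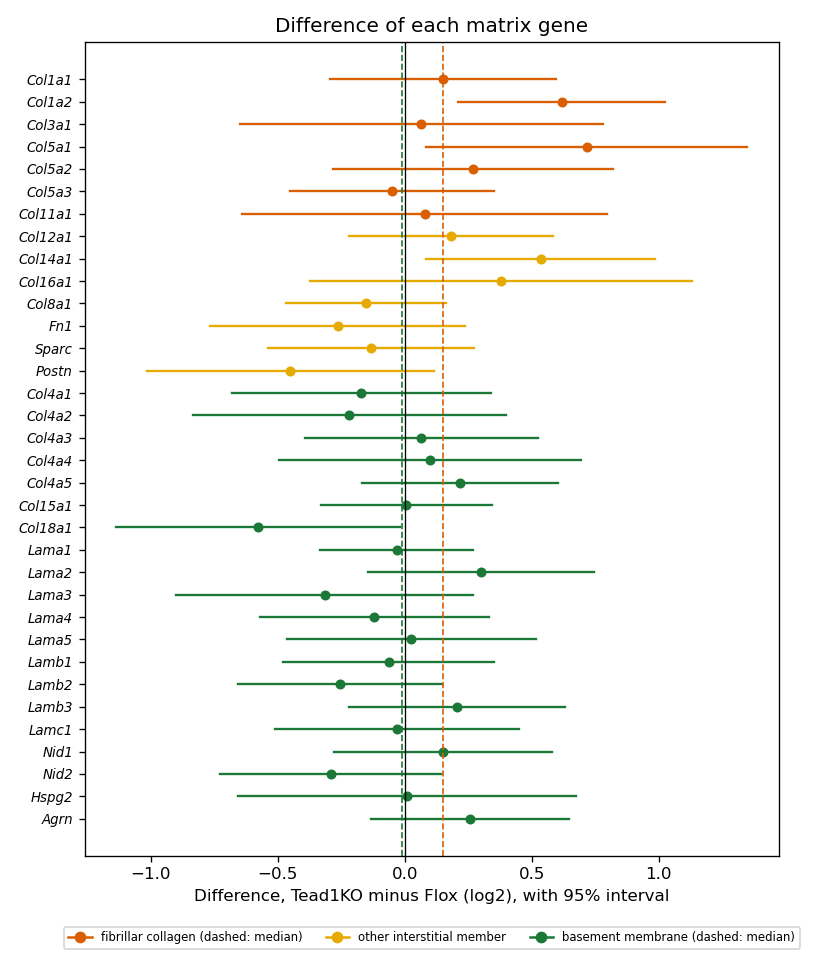
Log2 difference of each measured member (x axis, Tead1KO minus Flox) with its 95% interval from limma; orange marks fibrillar collagens, yellow the other interstitial members and green basement membrane members, and dashed lines are the medians of the fibrillar collagens (0.15) and of the basement membrane members (-0.01). The intervals of Col1a2, Col5a1, Col14a1 and Col18a1 leave out 0 before adjustment, and those of the other 30 members include it.

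The promoters of the members with separate groups, and of Col3a1, are shown because Tead factors bind DNA directly. The groups of Col3a1 overlapped, and its window is 1 of 4 member windows with the Tead motif given below. The windows of Lamb3 and Nid1 with that motif are not printed, nor is the outer start of Col18a1, which lacks it. The printed windows are thus no measure of how often the motif occurs. Motifs outside such windows were not searched. The sequences are those of RefSeq for mouse build GRCm38.p6, which had an entry for 24 of the 35 genes in 28 windows; Col14a1 had none. Each is the 250 bases before an annotated start, 5′ to 3′ along the gene. Capitals mark the Tead motif GGAATG, the CCAAT box, the GC box GGGCGG and the TATA box TATAAA, each on either strand.
Col1a2, chr6:4505368-4505617, plus strand: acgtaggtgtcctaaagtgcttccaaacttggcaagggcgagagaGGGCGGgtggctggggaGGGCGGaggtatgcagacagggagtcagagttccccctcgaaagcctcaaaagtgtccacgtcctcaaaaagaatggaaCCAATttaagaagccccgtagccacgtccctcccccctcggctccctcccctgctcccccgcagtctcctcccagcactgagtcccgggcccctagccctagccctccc
Col3a1, chr1:45311288-45311537, plus strand: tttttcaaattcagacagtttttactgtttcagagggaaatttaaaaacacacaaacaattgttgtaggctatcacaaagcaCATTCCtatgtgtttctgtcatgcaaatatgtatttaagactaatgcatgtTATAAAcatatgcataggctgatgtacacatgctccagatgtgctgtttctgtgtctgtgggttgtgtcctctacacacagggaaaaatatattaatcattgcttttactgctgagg
Col18a1, inner start, chr10:77113706-77113955, minus strand: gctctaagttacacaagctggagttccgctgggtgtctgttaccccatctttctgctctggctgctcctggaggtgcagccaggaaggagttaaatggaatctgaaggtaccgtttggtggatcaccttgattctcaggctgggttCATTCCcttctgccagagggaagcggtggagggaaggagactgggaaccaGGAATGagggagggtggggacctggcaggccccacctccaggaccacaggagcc

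The printed windows differ in make-up. Col1a2 has 1 CCAAT box and 2 GC boxes and no Tead motif, and its GC content was 62.0%. Col3a1 has 1 Tead motif, whose first base lies 168 bases before the start, 1 TATA box and a GC content of 35.2%. The inner start of Col18a1 has 2 Tead motifs, 104 and 54 bases before it, while the outer start has none. Over all members, 4 of 28 windows held the Tead motif (14.3%), in Col3a1, Col18a1, Lamb3 and Nid1, against 12.6% of all 32851 windows. The GC box was in 57.1% of the member windows and 32.7% of all windows, the CCAAT box in 35.7% and 33.8%, and the TATA box in 7.14% and 12.4%. A match is a description of letters and not of a bound site.

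Collagens that decorate the fibril surface, the fibril-associated chains, had differences above 0 in this comparison. Col14a1, which links fibrils and regulates their growth, read 5.99, 5.62 and 5.31 in Flox and 6.21, 6.22 and 6.09 in Tead1KO. Its groups did not overlap, and the Tead1KO arrays were closer together than the Flox arrays. The levels were 5.64 ± 0.34 and 6.17 ± 0.07 (SD, n = 3 each), with a log2 difference of 0.53, a ratio of 1.45 (SE 0.20, limma adjusted p = 0.549). Its other probe sets had group means within the background range. Col16a1 differed by 0.38, and that value came with the widest spread among the 3 chains, since Tead1KO replicate 3 read 8.13 and replicate 2 read 6.78. Without Tead1KO replicate 3 its difference was 0.07, and a covariate for the hybridization controls gave -0.07. Col12a1 differed by 0.18, and by 0.25 without that array.

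The remaining interstitial members had differences below 0. Col8a1, a short-chain collagen of vessel walls, differed by -0.15 near the background range. Fn1, fibronectin, the adhesive glycoprotein on which fibrils assemble, read 5.97, 5.76 and 6.36 in Flox and 6.09, 5.62 and 5.58 in Tead1KO (log2 difference -0.27, SE 0.22, limma adjusted p = 0.786). The Fn1 groups overlapped. Sparc, a collagen-binding protein made by many stromal and endothelial cells, read 9.50, 9.74 and 9.51 in Flox and 9.54, 9.64 and 9.17 in Tead1KO (log2 difference -0.13, limma adjusted p = 0.850), and only Tead1KO replicate 3 left the Flox range. Without that array the differences were 0.01 for Sparc and -0.17 for Fn1. Postn, periostin, a matricellular protein of remodelling stroma, differed by -0.45 (SE 0.25, limma adjusted p = 0.746). Its Flox replicate 1 at 7.37 lay far above the other 5 arrays, which spanned 6.22 to 6.71.

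The basement membrane members were centred on 0, with 10 of 20 above and 10 below and a median of -0.01. This sign turned with the setting: the median lay between -0.08 and 0.04 over all alternatives. Collagen IV forms the covalent network of the sheet, and its Col4a1 and Col4a2 chains make up the common molecule. Col4a1 read 10.85, 11.11 and 10.88 in Flox and 10.90, 11.14 and 10.30 in Tead1KO, a log2 difference of -0.17 (SE 0.22, limma adjusted p = 0.847). Col4a2 read 8.94, 9.13 and 8.99 in Flox and 9.18, 9.06 and 8.17 in Tead1KO, a difference of -0.22 (SE 0.27, limma adjusted p = 0.838). In both genes the first 5 arrays lay close together and only Tead1KO replicate 3 was low, and without it the differences were 0.07 and 0.10.

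These genes lie head to head. In RefSeq the start of Col4a2 on the plus strand is at base 11312805 and that of Col4a1 on the minus strand at base 11312826 of chromosome 8 (GRCm38.p6), so the first transcribed bases of the pair overlap by 22 bases. The stretch from the Col4a2 start to the Col4a1 start, printed to show how short the shared region is, reads as follows on the plus strand.
Col4a2 to Col4a1, chr8:11312805-11312826: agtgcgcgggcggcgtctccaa

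The rarer collagen IV chains showed small differences. Col4a4 and Col4a3, also neighbours in the RefSeq order and known from kidney and lung basement membranes, differed by 0.10 and 0.06, and by 0.39 and 0.02 without Tead1KO replicate 3. Col4a5 differed by 0.22, but its group means lay within the background range. The collagens with endostatin-like ends, Col15a1 and Col18a1, separated from each other. Col15a1, found in vessel walls between basement membrane and fibrils, was the steadiest member, at 7.79, 7.77 and 7.64 in Flox and 7.74, 7.70 and 7.77 in Tead1KO (log2 difference 0.01, SE 0.15, 95% interval -0.33 to 0.34).

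Col18a1, the source of endostatin, was the member with the lowest difference. It read 6.33, 6.44 and 6.38 in Flox and 5.95, 6.21 and 5.26 in Tead1KO. All Tead1KO arrays were below the Flox arrays, and they were spread over a far wider range. The levels were 6.38 ± 0.06 and 5.81 ± 0.49 (SD, n = 3 each), a log2 difference of -0.58, a ratio of 0.67 (SE 0.24, 95% interval -1.14 to -0.02, limma adjusted p = 0.662). Without Tead1KO replicate 3 the difference was -0.31 (SE 0.15, limma adjusted p = 0.736). A covariate for the hybridization controls gave -0.29. Its other probe set, which can match several transcripts, differed by -0.15.

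Laminins are heterotrimers of an alpha, a beta and a gamma chain, and chains Lama4 and Lama5 are those of vessel basement membranes. Of the 9 laminin chains, 3 had differences above 0 and 6 below, with a median of -0.03 and a range of -0.32 (Lama3, an epithelial chain) to 0.30 (Lama2, a chain of muscle and nerve sheaths). Lama5 read 9.65, 10.22 and 10.02 in Flox and 10.03, 10.25 and 9.67 in Tead1KO (log2 difference 0.03), and Lama4 differed by -0.12. Lamc1, the gamma chain of most laminins, read 7.86, 7.54 and 7.55 in Flox and 7.81, 7.81 and 7.25 in Tead1KO (log2 difference -0.03, SE 0.21, limma adjusted p = 0.974). The groups of these chains overlapped throughout. Lamb1 differed by -0.06, Lamb2 by -0.26 and Lamb3 by 0.21, and Lama1 lay within the background range in both groups. Without Tead1KO replicate 3 the differences were -0.10 for both Lama3 and Lamb2, 0.18 for Lama5 and 0.16 for Lamc1, so Lamc1 changed sign.

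The linkers of the sheet were likewise mixed. Nid1, nidogen, which bridges laminin and collagen IV, read 7.75, 7.28 and 7.30 in Flox and 7.60, 7.71 and 7.47 in Tead1KO (log2 difference 0.15, SE 0.19, limma adjusted p = 0.839). Nid2, its homologue, differed by -0.29. Hspg2, perlecan, a heparan sulfate proteoglycan of vessel walls, read 8.62, 7.90 and 8.12 in Flox and 8.36, 7.67 and 8.63 in Tead1KO (log2 difference 0.01, SE 0.29, limma adjusted p = 0.993). Its arrays were as scattered within each group as between them, and its second probe set differed by 0.20. Without Tead1KO replicate 3 the Hspg2 difference was -0.20. Agrn, agrin, differed by 0.26, and its Tead1KO replicates 1 and 2, at 8.87 and 8.62, were above the Flox arrays (8.32 to 8.44).

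Fibrillar and basement membrane genes were then set against each other in each array. The median of the 7 fibrillar chains exceeded that of the 20 basement membrane members by 0.16 on the log2 scale. Each array was also scored by the mean, over a list, of the signal minus the gene's own Flox mean. The fibrillar score minus the basement membrane score was 0.10, 0.03 and -0.13 in Flox replicates 1 to 3 and 0.30, 0.22 and 0.38 in Tead1KO replicates 1 to 3. On these mean scores all Tead1KO values were above all Flox values, and Tead1KO replicate 3 had the highest of the 6. With the median over each list in place of the mean, the groups overlapped. Flox replicate 1 then scored 0.249 for fibrillar and 0.106 for basement membrane genes, and Tead1KO replicate 1 scored 0.219 and 0.110. The parts of the gap in mean scores differed by array. The fibrillar score was highest in Tead1KO replicate 1 (0.39), while in Tead1KO replicate 3 it was 0.16 and the basement membrane score was at its lowest (-0.22). In Flox replicate 1 the fibrillar score was 0.20, above that of Tead1KO replicate 3, so the fibrillar scores alone overlapped between the groups. With all 14 measured interstitial members in place of the 7 chains the difference of medians was 0.13. For the 7 chains the difference of medians was 0.36 without Tead1KO replicate 3 and 0.29 without Flox replicate 2. As the members were chosen with results of these data known, the gap is given as a description with no test.

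**Figure D3:**
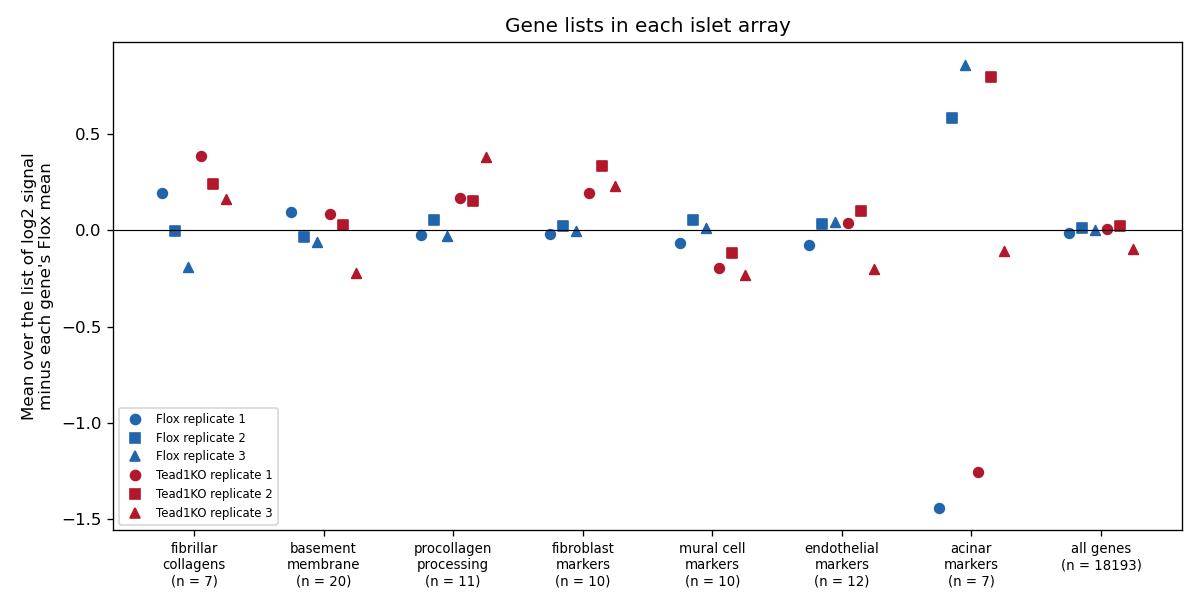
Mean over each gene list of the log2 signal minus the gene's Flox mean (y axis), 1 point per array (Flox in blue, Tead1KO in red, shapes for replicates), with the number of measured genes under each list. Fibrillar collagens and fibroblast markers sit higher in most Tead1KO arrays, basement membrane members and endothelial markers stay near 0 except in Tead1KO replicate 3, and acinar markers are low in replicate 1 of both groups.

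The array scores of the matrix genes moved with other features of the arrays. Tead1KO replicate 3 was the lowest of the 6 arrays for 14 of 34 members, 9 of them in the basement membrane, and Flox replicate 1 was the highest for 10, 9 of them in the basement membrane. Among the 8 members with a Flox mean of 8 or more, 7 read lower in Tead1KO replicate 3 than in the mean of Tead1KO replicates 1 and 2 (median -0.44). Over all 6093 genes at that level the median was -0.35. Among the 26 members under 8, 16 read lower (median -0.15), while the median over all 12100 genes under 8 was 0.05. Flox replicate 1, with high matrix signal, and Tead1KO replicate 1 had the least acinar signal (mean score -1.44 and -1.25, against -0.11 to 0.86 in the others). The part of these features in the matrix values was not tested.

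Where a member had several probe sets above background, they mostly pointed one way. This held for 11 of 13 such members, with a median range of 0.18 between the lowest and highest difference. The exceptions were Col4a1 and Sparc, whose probe sets straddled 0 by small amounts. The range was widest in Col5a1 (0.57), Col18a1 (0.43) and Col1a2 (0.42), the members with the largest differences, whose brightest probe set gave the largest value in each case.

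Of the genes that fold, process and bind these proteins, 71 were measured and 0 passed the test (limma), while 7 had an unadjusted p under 0.05, 4 with higher and 3 with lower signal in Tead1KO. Over all genes 0.517% passed and 7.41% had an unadjusted p under 0.05, 560 of 18193 genes with higher signal. Of the 4 higher genes, 3 belong to procollagen processing and cross-linking, where 11 were measured, and no enrichment was tested. Pcolce, which enhances removal of the procollagen tail, read 6.03, 6.16 and 5.92 in Flox and 7.06, 7.03 and 6.40 in Tead1KO (log2 difference 0.79, limma adjusted p = 0.280). Loxl1, a lysyl oxidase relative, read 6.08, 5.94 and 5.99 in Flox and 6.88, 7.03 and 6.40 in Tead1KO (0.77, limma adjusted p = 0.247). In both genes the Tead1KO arrays lay above the Flox arrays. Lox, lysyl oxidase, the third of these genes, read 4.45, 4.31 and 4.08 in Flox and 4.66, 5.16 and 5.46 in Tead1KO, so all Flox arrays and Tead1KO replicate 1 were within the background range and no size is given for its difference. Without Tead1KO replicate 3, Pcolce and Loxl1 passed (limma adjusted p = 0.0314 and 0.0342), together with Sdc4, a syndecan of cell surfaces (log2 difference 1.70, limma adjusted p = 0.00869). With all arrays Sdc4 differed by 0.93 (limma adjusted p = 0.767). Tead1KO replicate 3 was the lowest of the 6 arrays on this Sdc4 probe set, at 8.34, and the highest on the other, at 10.07. Bmp1, the protease that trims procollagen, differed by -0.35.

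Collagen folding enzymes and matrix receptors showed no common direction. The 18 folding and modification genes had a median of -0.01. P4ha2, a prolyl hydroxylase subunit, was at -0.88 (limma adjusted p = 0.364, and 0.0498 without Tead1KO replicate 2), and Serpinh1, the collagen chaperone, at 0.19. The 23 receptors had a median of 0.03, with 12 above 0 and 11 below. The 4 with the smallest unadjusted p were all below 0. These were Itga7, a laminin-binding integrin near background (-0.65, limma adjusted p = 0.449), Cd44 (-0.62), Itgav (-1.30) and Sdc2 (-0.48). Without Tead1KO replicate 3 they were at -0.42, -0.38, -0.45 and -0.23. Itgb1, the shared beta chain, was at 0.38, and at 0.52 without that array.

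Among these 71 genes the one furthest from 0 was a basement membrane ligand. Npnt, nephronectin, which binds integrins from the basement membrane, read 8.35, 9.60 and 9.62 in Flox and 6.81, 7.79 and 6.07 in Tead1KO. Every Tead1KO array was below every Flox array, at a log2 difference of -2.30 (SE 0.48, limma adjusted p = 0.137). Without Tead1KO replicate 3 the difference was -1.89 (limma adjusted p = 0.143). Npnt passed with the hybridization controls as a covariate (-1.56, limma adjusted p = 0.00416), with quantile normalization (-1.43, 0.00911) and without Tead1KO replicate 2 (-2.75, 0.0295). The brightest probe set was chosen anew after quantile normalization, so that value may come from the second probe set. A second probe set, which can match several transcripts, differed by -1.55 and passed when every probe set was tested separately (limma adjusted p = 0.0212). Its other 3 probe sets differed by -0.60, -0.14 and 0.02. Col27a1, a fibrillar collagen outside the list, read 6.76, 7.18 and 6.86 in Flox and 7.69, 7.76 and 7.64 in Tead1KO (0.76, limma adjusted p = 0.167). Its groups were separate in the same direction as those of Col1a2.

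Markers of the cells that make these matrices were compared over the same arrays. In the comparison as reported 0 of them passed (limma), where 0.517% of all genes did. Dcn passed with quantile normalization (1.19, limma adjusted p = 0.0449) and with a covariate for the hybridization controls (1.44, 0.00648), and Myh11 without Tead1KO replicate 2 (-1.01, 0.0423). The 10 fibroblast and stellate markers had 8 above 0 and a median of 0.16, with mean levels of 5.62 to 5.66 in Flox and 5.83 to 5.97 in Tead1KO. Dcn, decorin (log2 difference 1.11, limma adjusted p = 0.200), and Dpt, dermatopontin (0.60, limma adjusted p = 0.292), had every Tead1KO array above every Flox array, as in 5.80% of all genes. Lum (0.48), Igfbp6 (0.33) and Mfap5 (0.27) were also above 0. Thy1 (0.03) and Cygb (0.01) were close to 0, and Pi16 (-0.27) and Clec3b (-0.07) were below it. Pdgfra, the defining receptor of fibroblasts, was close to background in both groups, at 4.67 and 4.71. The 10 pericyte and smooth muscle markers went the other way, with 7 below 0 and a median of -0.11. Among these 7 were Acta2 (-0.99) and Myh11 (-0.86), contractile proteins, and Rgs5 (-0.62), whose arrays overlapped. The 3 above 0 were Kcnj8, a pericyte channel (0.62), Abcc9 (0.42) and Pdgfrb (0.20). The 12 endothelial markers had a median of 0.02, a range of -0.29 to 0.14 and 0 genes at an unadjusted p under 0.05. Mean endothelial levels were 7.47 to 7.60 in Flox and 7.35 to 7.65 in Tead1KO. The fibroblast median thus lay on the same side as the fibrillar median, and the endothelial markers, like the basement membrane members, lay near 0. Without Tead1KO replicate 3 the fibroblast median was 0.08, with 6 of 10 markers above 0, while the fibrillar median was 0.40. In that fit Dcn was at 1.28, Lum at 0.73 and Mfap5 at 0.07, and Acta2 at -0.76, Myh11 at -0.75 and Rgs5 at -0.37. The part of these markers in the matrix values was not tested.

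**Figure D4:**
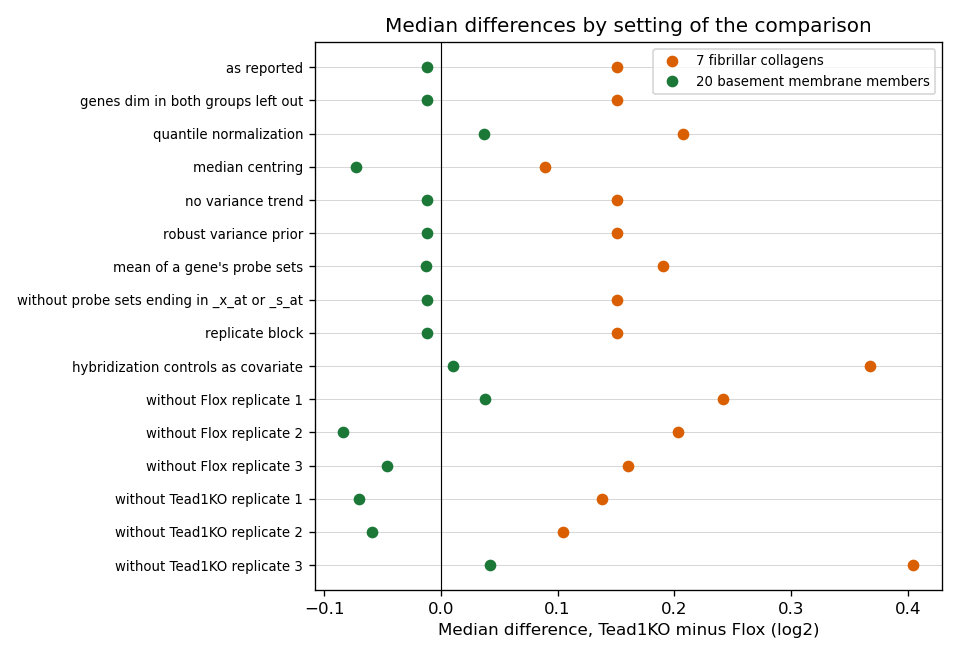
Median log2 difference (x axis, Tead1KO minus Flox) of the 7 fibrillar collagens (orange) and the 20 basement membrane members (green) under each setting of the comparison (y axis). The fibrillar median stays above 0, from 0.09 with median centring to 0.40 without Tead1KO replicate 3, and the basement membrane median crosses 0.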

How the data were processed

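RNA of 3 Flox and 3 Tead1KO islet samples was read on 1 Affymetrix mouse array each. The authors deposited log2 signals per probe set. The submitters' processing notes name Expression Console, without its version or normalization. In the platform annotation 34945 of 45101 probe sets had a single symbol, and the one with the highest mean per gene was kept. Groups were compared across all 18193 genes in R (version 4.3.3) by limma (version 3.58.1; lmFit, eBayes with a variance trend, no covariate, no filter), with Benjamini-Hochberg adjustment over all genes and a threshold of 0.05. The procedure was tested on simulated data. Background is the range of 27 unspiked bacterial control probe sets. With arrays, their number limits the precision. The members, gene lists and alternatives were chosen with earlier results of these data known. Values in every array are given for members with separate groups above background and for 10 core members, and pathway and marker lists are named by up to 4 genes with the smallest unadjusted p, and other genes shown with values were added after those were seen.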

Additional observations from a re-analysis of the deposited data

How the results depend on the processing

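The count of members that passed was 0 under all 17 alternatives, including an adjusted p under 0.1 and every probe set tested separately (an alternative chosen after seeing the data). Over all genes, where 94 passed, the count ranged from 12 to 303 over the alternatives fitted gene by gene. Averaging the probe sets of each gene gave differences of 0.26 for Col1a2, 0.23 for Col14a1, 0.41 for Col5a1 and -0.36 for Col18a1; these 4 kept their sign in all 15 of their alternatives, with limma adjusted p from 0.102 to 0.998. The median difference of the fibrillar collagens was above 0 in all 15 of its alternatives, and 0.11 to 0.40 with 1 array left out in turn. The difference of medians, fibrillar minus basement membrane, was 0.36 with the hybridization controls as a covariate and 0.16 to 0.36 with 1 array left out. Of the enzymes, receptors and other matrix genes, 1 passed with quantile normalization, 2 with the hybridization controls as a covariate and 0 to 3 with 1 array left out. The cause of these shifts was not tested. With the replicate block, 97 genes passed in place of 94, among them 1 of these matrix genes, Npnt (limma adjusted p = 0.0417), and 0 members. The labels give same-numbered arrays only a number in common, and whether they were handled together is not known. Their deviations from the group means correlated at 0.06, 0.30 and -0.17, and 1 of the 3 Flox arrays correlated best with its own number. Acinar scores in Flox and Tead1KO were alike in replicate 1 (-1.44 and -1.25) and replicate 2 (0.58 and 0.80), and apart in replicate 3 (0.86 and -0.11). Differences under about 0.45 on the log2 scale were below what these arrays could typically resolve even before adjustment. Larger ones could still miss the adjusted threshold, as Col5a1 did at 0.72 (limma adjusted p = 0.590). Lama1, Col4a5 and Col11a1 lay at or near background.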
